A study of Homo sapiens with 8 samples.

Results

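NB-39-nu is an established human neuroblastoma cell line, and its expression profile was set against those of 3 other established neuroblastoma lines, SK-N-DZ, SH-SY5Y and SK-N-BE. The line was represented by 2 of the 8 arrays of the series, chosen by the cell line named in the labels, and the other lines by 6. Each line gave 1 array of control cells, infected with the pLKO.1 lentiviral vector (shCont), and 1 of cells given a lentiviral hairpin (shBMI1-1) that targets BMI1, a subunit of Polycomb repressive complex 1. RNA was taken from all cells between day 8 and day 14 after infection, and no untreated cells were used, so every level below was measured in infected cells. Nothing in the labels says that the 2 cultures of a line were started separately. P-values therefore measure the spread among the arrays of 4 lines, in which NB-39-nu is 1 line.

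Neuroblastoma arises from the sympathoadrenal branch of the neural crest, the embryonic cells that also give rise to sympathetic neurons and chromaffin cells. Its cell lines range between an adrenergic state, with transcription factors such as GATA3, HAND2 and PHOX2A and catecholamine enzymes, and a mesenchymal state closer to migrating crest cells, with vimentin and matrix proteins. Amplification of MYCN is a frequent lesion of the tumour, and the receptor tyrosine kinase ALK is the best known kinase altered in it. Amplification of ALK has been described in NB-39-nu in earlier work; copy number was not measured here.

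The deposited value of a probe set, a group of short probes read as 1 transcript, is its signal, an intensity on a linear scale. Of 19776 genes with a probe set annotated to that gene alone, 11207 reached a signal of 200 on at least 2 arrays and were tested. Differences are on the scale of log2(signal + 8), NB-39-nu minus the other lines, with the knockdown as a covariate. No presence calls were used, so signals under 200 are printed as deposited and no order is read among them. Where 1 side lay wholly under it, the fold is given as a lower bound against 200, since the fitted difference of such a gene depends on the added 8. BMI1 itself read 7175 in control and 1765 in knockdown NB-39-nu cells, through a probe set also annotated to its read-through neighbour, and was likewise lower on the knockdown array of each other line. Correlations were taken over all probe sets assigned to a gene, before the filter on signal. They were 0.940 between the 2 NB-39-nu arrays and 0.944 to 0.960 within the other lines. Between NB-39-nu and any array of another line they were 0.869 to 0.880, against 0.858 to 0.886 between the other lines. The 3′ to 5′ signal ratio of ACTB, a sign of RNA integrity, was 6.01 and 4.82 on the NB-39-nu arrays and lay between 3.81 and 5.25 on the others; its part in the results was not tested.

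The upstream sequences of the genes that stood farthest below and farthest above all other arrays, UBB and MSN, are shown to give the sequence context of both extremes. Both are from RefSeq (GRCh38.p14), each with 250 bases before and 50 after the annotated start, 5′ to 3′ on the gene's strand, with CG dinucleotides in capitals. The UBB window lies at chr17:16381040-16381339 on the plus strand and holds 18 CG dinucleotides, and the MSN window lies at chrX:65588127-65588426 on the plus strand and holds 7.
UBB: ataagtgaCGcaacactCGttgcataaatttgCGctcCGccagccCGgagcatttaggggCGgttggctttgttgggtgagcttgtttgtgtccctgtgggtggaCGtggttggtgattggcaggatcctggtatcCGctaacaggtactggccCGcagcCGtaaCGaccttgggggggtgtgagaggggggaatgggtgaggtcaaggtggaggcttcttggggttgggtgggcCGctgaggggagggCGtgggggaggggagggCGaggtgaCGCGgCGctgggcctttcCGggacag
MSN: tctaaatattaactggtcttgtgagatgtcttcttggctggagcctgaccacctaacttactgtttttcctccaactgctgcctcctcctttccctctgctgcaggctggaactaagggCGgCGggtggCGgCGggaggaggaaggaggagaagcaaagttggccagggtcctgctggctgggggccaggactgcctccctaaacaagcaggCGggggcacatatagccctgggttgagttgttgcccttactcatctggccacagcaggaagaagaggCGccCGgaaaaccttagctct
A promoter window of this length was found for 9248 of the 11207 tested genes, of which 82.4% had over 50% G and C and an observed to expected CG ratio over 0.6. The share was 73.1% for the 167 genes with a window among those at least 2-fold above all other arrays, and 71.6% for the 194 among those at least 2-fold below. These shares are descriptions of the letters only; no methylation was measured.

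The search for genes that set NB-39-nu apart gave 20 that passed an adjusted p of 0.05 in limma's moderated test with Benjamini-Hochberg adjustment. In NB-39-nu, 4 of these were higher (0.0357% of the genes tested) and 16 lower (0.143%), and all 20 lay at least 2-fold beyond every other array. UBB, 1 of the genes that encode ubiquitin, showed the largest fall. It read 32.6 in control and 84.5 in knockdown NB-39-nu cells. On the other 6 arrays its lowest, median and highest signals were 38096, 45094 and 53488. The UBB transcript thus ranked among the bright signals in 3 lines and lay under 200 in NB-39-nu, at least 214-fold lower, with a difference of -9.50 ± 0.74 (SE, limma adjusted p = 0.00222). UBBP1, a processed pseudogene of UBB, also fell, at least 6.91-fold; the probe sets of a gene and its near-identical copy can share transcripts, so this is not a separate observation. Averaging the arrays of each line and comparing 1 line with 3 left UBB and TCEAL7 as the only called genes, so the other 18 calls rest on treating the 2 arrays of a line as partly independent. Leaving out SK-N-DZ raised the number of calls to 71, leaving out SH-SY5Y lowered it to 8, and leaving out the shBMI1-1 array of NB-39-nu raised it to 43.

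TCEAL7, a member of the transcription elongation factor A-like family on the X chromosome, read 12.4 and 3.53 in NB-39-nu. Elsewhere its lowest, median and highest signals were 4680, 5796 and 6863, so that NB-39-nu was at least 27.2-fold lower (limma adjusted p = 0.00636). ZIC1, a zinc finger transcription factor of neural and neural crest development, read 5.81 and 3.43 in NB-39-nu. It ran from 1055 in SK-N-DZ control cells to 4677 in SK-N-BE knockdown cells with a median of 3663, at least 12.7-fold above NB-39-nu. IGF2BP3, an RNA-binding protein of fetal tissues that many tumours re-express, read 61.2 and 140 against 4478, 4936 and 6025 as the lowest, median and highest of the other arrays. The bound for IGF2BP3 was 24.1-fold lower, and 2 further bright probe sets of the gene were also at least 2-fold below all other arrays. In none of these genes did the NB-39-nu arrays come near the other lines.

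Several of the other genes that fell act in metabolism, protein turnover and signalling. B3GALNT1, the enzyme that makes the glycolipid globoside, read 1.48 and 1.55 against 1013 to 2631 elsewhere, with a median of 1617. CTSC, the lysosomal protease cathepsin C, read 36.8 and 15.2 against a range of 1510 to 6325 with a median of 4522, and 3 further bright probe sets of it lay over 2-fold below all other arrays too. PTGR1, a prostaglandin reductase, read 10.6 and 8.32 against 805 to 4307 with a median of 2050. RPL39L, a copy of a ribosomal protein gene, was at least 11.7-fold lower and SLC35F2, a solute carrier, at least 5.74-fold. The Groucho-type corepressor TLE1 read 64.5 and 53.9 against 1337 to 2013 with a median of 1713. The neural adhesion molecule CNTN1 read 34 and 61.2 against 1252 to 8053 with a median of 1704. BEND5, PPP1R16B, GFOD3P and CMTM7 completed the list, at least 4.10-fold, 3.38-fold, 7.34-fold and 7.56-fold lower. Of the 20 called genes, 10 had further bright probe sets, 18 in number. All 18 differed in the same direction, 17 without overlap between NB-39-nu and the other arrays and 14 with at least a 2-fold gap.

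The 4 genes that rose were NRBP1, SLC4A1AP, LCLAT1 and GPN1, and all 4 lie on chromosome 2 close to ALK. LCLAT1, an acyltransferase that remodels the mitochondrial lipid cardiolipin, read 44929 and 45081 in NB-39-nu and had 3603, 5342 and 8342 as its lowest, median and highest signals elsewhere (difference 3.06 ± 0.42, SE, limma adjusted p = 0.0286). NRBP1, a pseudokinase, read 5063 and 6029 against 336, 408 and 444 (difference 3.78 ± 0.50, SE, limma adjusted p = 0.0239). SLC4A1AP, which encodes kanadaptin, read 19232 and 20570 against 1538, 2251 and 2564. Its second bright probe set was likewise above every other array. GPN1, a GTPase needed for the nuclear import of RNA polymerase II, read 17606 and 13009 against 1877, 2174 and 2812. The 2 NB-39-nu arrays of each of these genes were thus close to each other and several fold above the brightest array of any other line.

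ALK read 27056 in control and 24530 in knockdown NB-39-nu cells. SH-SY5Y read 1044 and 1157, SK-N-DZ 244 and 306, and SK-N-BE 108 and 80. The signal in NB-39-nu stood 4.40 log2 units above the brightest other array, but the difference of 6.35 ± 1.08 (SE) had a limma adjusted p of 0.0666 and did not pass, as the other lines also differed among themselves. The neighbours LBH, a transcriptional cofactor of limb bud and heart, and YPEL5 did not pass either. LBH read 28527 and 34517 in NB-39-nu, no more than 77.3 in SH-SY5Y or SK-N-DZ, and 1806 and 2899 in SK-N-BE. YPEL5 read 35110 and 43261 against 1621, 2872 and 5446 as the lowest, median and highest signals elsewhere.

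In chromosome order the bright genes around ALK fell into 2 separate runs. From NRBP1 to RBKS, all 10 tested genes were above every other array, 8 of them at least 2-fold, with a median difference of 2.70; over all tested genes, 13.6% were above every other array and 1.82% were so by at least 2-fold. Besides the 3 called genes of this run, RBKS, the ribokinase, read 4322 and 5280 against at most 532 elsewhere, and SUPT7L, a subunit of the STAGA complex, read 19246 and 17122 against at most 3542. The next 7 genes, from BABAM2 to CLIP4, had a median difference of -0.43, and none was above every other array. Over windows of 11 neighbouring tested genes, that from PPM1G to RBKS had the highest median difference of 10953, 2.64, where 95% of windows lay between -0.87 and 0.83. Then ALK, YPEL5, LBH and LCLAT1, neighbours in this order, were all at least 2-fold above every other array, with a median difference of 5.04. The 10 genes before NRBP1 had a median of -0.06. Of the 10 after LCLAT1, 7 were below every other array and none above, where 13.5% of all tested genes were below. The runs were picked out after their values were seen, and neighbouring genes were not tested as a group.

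**Figure D1:**
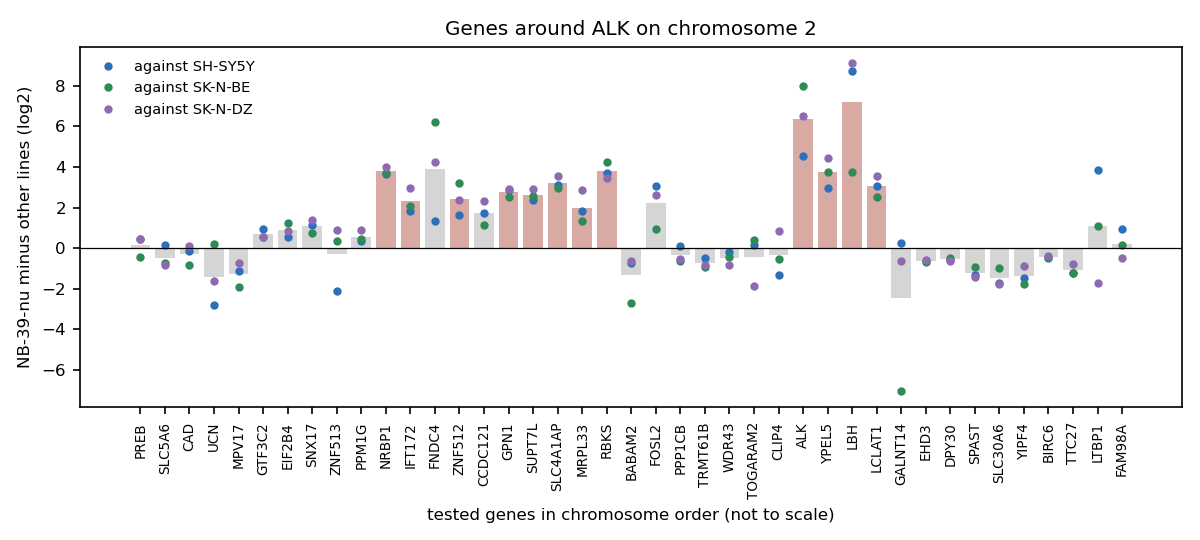
Difference between NB-39-nu and the other lines (log2) for tested genes in chromosome order around ALK; bars give the difference from the mean of the other 6 arrays, red where both NB-39-nu arrays were at least 2-fold above all others, and dots give the difference from each other line. The bars from NRBP1 to RBKS and from ALK to LCLAT1 stand above 0 for all 3 lines, and those between them lie mostly near or below 0.

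MYCN, the other oncogene of this chromosome arm, did not set the line apart. It read 59743 and 51340 in NB-39-nu. SK-N-BE gave 43219 and 55281 and SK-N-DZ 50064 and 44318, while SH-SY5Y gave 449 and 683. Its neighbour DDX1 read 14926 and 12116 in NB-39-nu, above the 8905 to 11654 of SH-SY5Y and SK-N-BE and far under the 85387 and 84295 of SK-N-DZ. MYC was under 10 on both NB-39-nu arrays and reached 629 and 1362 in SH-SY5Y. NB-39-nu thus shared the high MYCN and low MYC signals of SK-N-DZ and SK-N-BE.

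A wider set of genes separated the arrays without passing the adjusted test. Both NB-39-nu arrays were at least 2-fold above all 6 others for 204 genes (1.82% of those tested) and at least 2-fold below for 253 (2.26%). Without the 2-fold margin, 1525 genes were above (13.6%) and 1510 below (13.5%). With the same counts taken for each other line, the 2-fold sets held 311 higher and 168 lower genes in SH-SY5Y, 350 and 313 in SK-N-BE, against 232 and 336 for SK-N-DZ, so NB-39-nu had no more such genes than its peers. At the margin, EFHD2, with a gap of 1.00 log2 units, was just inside the higher set, although a dimmer probe set of it overlapped the other lines, and CYRIA, at 0.997, just outside. On the lower side GCA, at -1.02, was just inside and PCBP1-AS1, at -0.999, just outside. Of the 204 higher genes, 87 were over 200 in NB-39-nu alone. Of the 253 lower genes, 123 were under 200 on both NB-39-nu arrays and at least 200 on all 6 others. An array of each side reached 200 for 117 of the higher genes and for only 70 of the lower. Among further bright probe sets of these genes, 83 of 87 on the higher side and 164 of 166 on the lower side differed in the same direction. They were without overlap for 77 and 136 of these probe sets and kept a 2-fold gap for only 51 and 71.

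MSN, the moesin gene, whose product links the cell membrane to actin, stood farthest above the other arrays. It read 13502 and 13669 in NB-39-nu and 8.79, 27.5 and 82.9 as the lowest, median and highest signals elsewhere, at least 65.4-fold higher, and missed the threshold (limma adjusted p = 0.0724). NHLH2, a neuronal basic helix-loop-helix factor, read 5745 and 8098 against at most 66.8, at least 32.8-fold higher. The chemokine receptor CXCR4 read 2719 in control and 15387 in knockdown NB-39-nu cells against at most 92.1 elsewhere. CDH6, a cadherin of migrating neural crest, read 2358 and 1619 against at most 95.4. MSN, NHLH2 and CXCR4 were picked for the size of their gap after their values were seen.

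**Figure D2:**
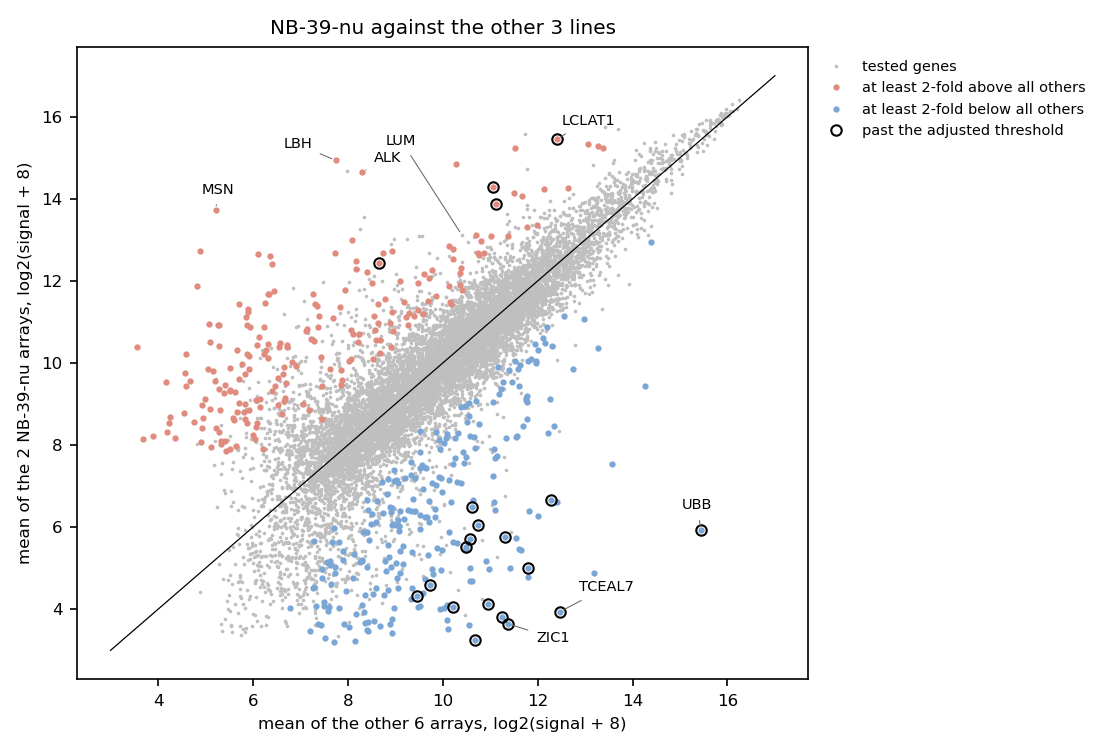
Mean log2(signal + 8) of the 2 NB-39-nu arrays against the mean of the other 6, 1 point per tested gene, with the line of equality; red and blue points are genes at least 2-fold above and below all other arrays, and rings mark the 20 genes past the adjusted threshold. UBB lies far below the line at the bright end, MSN and ALK far above it, and LUM is not among the coloured points.

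LUM encodes lumican, a small leucine-rich proteoglycan that binds collagen fibrils, and it was examined as a candidate marker of this line. It read 5522 in control and 14204 in knockdown NB-39-nu cells. SK-N-BE read 4717 and 5167, SH-SY5Y 1399 and 1308, and SK-N-DZ 490 and 270. LUM was therefore brightest in NB-39-nu, but its control array was only 0.096 log2 units above the brightest array of SK-N-BE, and the difference of 2.71 ± 1.51 (SE) did not pass (limma adjusted p = 0.983). By this measure LUM separated NB-39-nu and SK-N-BE together from the other lines rather than NB-39-nu alone. Of 17 small leucine-rich proteoglycan genes on the array, 5 were tested and none passed. Decorin (DCN) read 70.7 and 213 in NB-39-nu and up to 623 in SK-N-BE, biglycan (BGN) 108 and 68.4 against up to 1398 in SK-N-BE, tsukushi (TSKU) 367 and 585, with 305 as its control signal in SH-SY5Y, and PODNL1 121 and 222 against at most 290. Among these 5 genes LUM and TSKU were above every other array, neither by 2-fold.

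Several genes of the neuronal cytoskeleton and differentiated neurons were dim in NB-39-nu, while others were not. Of 24 genes of neuronal structure with a probe set, 13 were over 200 on both NB-39-nu arrays, with 21 for SH-SY5Y, 22 for SK-N-BE and 15 for SK-N-DZ. Of the 22 tested, 3 reached 200 only in the other lines, which fixes their direction. The other 19 reached 200 on an array of each side, 12 with a negative and 7 with a positive difference. Their median was -0.7, where all such genes had 0.07. Below every other array lay 3 of the 19, 15.8%, near the 11.1% of all such genes. At least 2-fold below were 2 of the 19, as were 70 of all 9693 such genes. None passed the adjusted test. RTN1, a reticulon of the neuronal endoplasmic reticulum, read 1.52 and 83.3 in NB-39-nu and 2636, 14559 and 18864 as the lowest, median and highest signals elsewhere. ELAVL4, which encodes the neuronal RNA-binding protein HuD, read 68.1 and 440 against 5845, 11590 and 22933. The dendritic microtubule protein gene MAP2 read 26.3 and 164 against 1500, 6109 and 6989. In these 3 genes both NB-39-nu arrays were below all others, and RTN1 and MAP2 reached 200 only in the other lines. Among the members with a positive difference, the tubulin gene TUBB3 read 21673 and 26109 in NB-39-nu and from 10751 to 23377 elsewhere.

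Of these genes 19 reached 200 on an NB-39-nu array, and 11 of the 19 were at least 2-fold higher on the knockdown array of the line than on its control array, where 4.74% of all tested genes that reached 200 there were. By the same count 3 of 19 were that much higher in SK-N-DZ, 1 of 22 for SK-N-BE and 0 of 22 for SH-SY5Y. Of all tested genes that reached 200 in these lines, 0.67%, 0.703% and 0.646% were, in that order. In SK-N-DZ, too, the share among the neuronal structure genes, 15.8%, was thus above that of all such genes. STMN2, a stathmin of growing axons, read 1630 in control and 16825 in knockdown NB-39-nu cells, and GAP43, a growth cone protein gene, read 645 and 1755. GAP43 ran from 807 to 9810 elsewhere and STMN2 from 508 to 29376. Each line gave 1 pair of arrays, so these differences have no replicate check. Among the 70 genes at least 2-fold below all other arrays that still reached 200 on an NB-39-nu array, 9 were at least 2-fold higher on its knockdown array and 61 moved by less than 2-fold. Among the 204 genes above, 191 moved by less than 2-fold. Of all 9819 tested genes that reached 200 on an NB-39-nu array, 9164 did, so the share of the 204 was near that of all such genes.

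Some secretory and ion channel genes of neurons were dim as well. Of 15 granin and peptide-processing genes, 8 were over 200 on both NB-39-nu arrays, with 10 for SK-N-DZ and 11 each for SH-SY5Y and SK-N-BE. Of these 15, 5 reached 200 only in the other lines, which fixes their direction. The other 10 reached 200 on an array of each side. Among them 1 was above every other array and 0 below, where 14.4% and 11.1% of all such genes were. SCG3, a granin of dense-core vesicles, read 4.37 and 72.1 in NB-39-nu against 423 to 5603, and PTPRN2, a vesicle membrane phosphatase, 67.7 and 25.2 against 952 to 1656. Of 28 ion channel genes, 4 were over 200 on both NB-39-nu arrays, with 8 for SK-N-DZ, 14 for SH-SY5Y and 13 for SK-N-BE. The 15 that were tested give no fair count of direction, since 8 of them reached 200 only in the other lines. The sodium channel gene SCN3A read 11.1 and 27.4 against 308, 1778 and 6283 as the lowest, median and highest elsewhere, and the potassium channel gene KCNT2 read 179 and 114 against 1083, 1608 and 6066. The neuropeptide Y receptor gene NPY2R read 0.67 and 12.5 against 396 to 2900. None of these genes passed the adjusted test.

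Factors of the adrenergic programme lay on both sides. Of 25 tested adrenergic transcription factor genes, 7 were above every other array and 5 below, where 13.6% and 13.5% of all tested genes were, 4 reached 200 only in the other lines, and the median was 0.06. GATA3 read 25747 and 25929 in NB-39-nu against 9632 to 21064, HAND2 370 and 473 against 374 to 510, and PHOX2A 11847 and 10656 against 6649 to 11567. Of these factors of the lineage, GATA3 was above every other array and the others overlapped them. GATA2 went lower, at 883 and 953 against 3778, 8466 and 9834 as the lowest, median and highest elsewhere, and HAND1 read 517 and 568 against 2107, 3698 and 5312. INSM1, a zinc finger factor of neuroendocrine cells, read 1738 and 2004 against at most 399. None passed the adjusted test.

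Catecholamine genes lay mostly low. Of 9 tested, 7 had a negative difference, with a median of -1.74, and 2 of them reached 200 only in the other lines. Over all 13 with a probe set, 7 were over 200 on both NB-39-nu arrays, as were 7 for SK-N-DZ, 8 for SH-SY5Y and 9 for SK-N-BE. The vesicular monoamine transporter gene SLC18A2 read 2.6 and 4.18 in NB-39-nu and 121 to 1752 elsewhere. DDC, the decarboxylase that makes dopamine, read 883 and 1952 against 4384, 9367 and 26014, and DBH, which turns dopamine into noradrenaline, read 326 and 577 within a range of 284 to 13331. QDPR, which regenerates the cofactor of tyrosine hydroxylase, and MAOA, a monoamine oxidase gene, had positive differences. QDPR read 19248 and 19573 against 3528, 4434 and 5573, and MAOA 4622 and 2543 against 295, 469 and 2665. The gene of tyrosine hydroxylase itself did not reach 200 on any array.

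HOX genes, which set position along the body axis, were dim throughout in NB-39-nu. Of 26 HOX genes with a probe set, 0 were over 200 on either NB-39-nu array, while 6 were over 200 on both arrays of SH-SY5Y, 9 for SK-N-BE and 3 for SK-N-DZ. The 11 that were tested entered the fit only through the other lines, which fixes their direction, so no count or median over them is given; none passed the adjusted test. HOXC4 read 54.9 and 91.5 in NB-39-nu against 385, 820 and 1222 as the lowest, median and highest elsewhere, and HOXC6 4.73 and 54.9 against 67.3 to 3234. In SK-N-DZ several of these genes were dim too, and HOXC9 and HOXC10 overlapped. The non-coding RNA genes of the HOXC cluster were also under 200 in NB-39-nu, LINC02381 at 2.00 and 7.03 against 255, 3072 and 3911, and HOTAIR at 1.10 and 1.49 against 29.4 to 2194.

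Some genes of the mesenchymal state were bright in NB-39-nu. Of 36 with a probe set, 23 were over 200 on both NB-39-nu arrays, with 17 for SK-N-DZ, 18 for SH-SY5Y and 19 for SK-N-BE. Of 26 tested, 3 reached 200 only in NB-39-nu and 3 only in the other lines, which fixes their direction. The other 20 reached 200 on an array of each side, and their median was 0.94. Of these, 9 were above every other array and 1 below, where 14.4% and 11.1% of all such genes were. None of the 20 was 2-fold above or below all other arrays. The receptor gene NOTCH1 read 1243 and 1417 in NB-39-nu against at most 136. The transcription factor gene FOSL1 read 357 and 529 against at most 61, and the receptor kinase gene AXL 783 and 514 against at most 146. These 3 genes were those that reached 200 only in NB-39-nu. Vimentin (VIM) read 40256 and 58620, little above the 38552 and 39703 of SH-SY5Y, with 112 and 14 in SK-N-DZ. S100A6 ran against the list, at 14.9 and 54 in NB-39-nu and up to 6143 in SK-N-BE. None of these genes passed the adjusted test.

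Matrix genes lay on both sides. Of 37 tested matrix glycoprotein and remodelling genes, 9 were above every other array and 5 below, with a median of 0.29. Over all tested genes 13.6% were above and 13.5% below, so that the count below is near the share of all genes, and 10 of the 37 reached 200 only in the other lines. The cross-linking enzyme gene LOXL1 read 2027 and 3766 in NB-39-nu against 1.86, 41.4 and 147 as the lowest, median and highest elsewhere, and tenascin C (TNC) 2058 and 3156 against 2.08, 27.5 and 637. LAMA1, a laminin chain, read 1444 and 1288 against at most 307. FBN1, the fibrillin gene, read 35.7 and 90.9 against 388 to 752 and lay on the other side. Of 14 tested collagen genes, 0 were 2-fold above or below all other arrays.

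Markers of fibroblasts summed to 11443 and 20418 on the NB-39-nu arrays, against 11162 and 11200 in SK-N-BE and 1400 to 4589 in the other lines. Without LUM the sums were 5921 and 6214 in NB-39-nu and 6445 and 6034 in SK-N-BE. Of the 13 fibroblast markers 6 passed 200 on an NB-39-nu array. Of the 8 tested, 6 had a positive and 2 a negative difference, with a median of 0.93. At least 2-fold above all other arrays was 1 of them, where 1.82% of all tested genes were. The fibrillar collagen genes COL1A1 and COL1A2 and the gene FAP were under 200 on both NB-39-nu arrays, at 126 and 191, 16.5 and 48.7, and 143 and 169. The part of the fibroblast markers in the mesenchymal and matrix values was not tested. No marker of Schwann cells and glia, endothelium, epithelium or adrenal cortex passed 200 on an NB-39-nu array; 1 blood, 1 melanocyte and 2 muscle markers did.

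Receptor tyrosine kinases had the highest median of the lists shown, 1.34 over 20 tested genes, of which 16 had a positive difference and 5 were above every other array, where 13.6% of all tested genes were. ALK alone of the 20 was at least 2-fold above; AXL, counted with the mesenchymal genes, was so too. The ephrin receptor genes EPHA7 and EPHB3 read 1113 and 2435 and 780 and 729 in NB-39-nu, against at most 684 and 401. MET, the receptor for hepatocyte growth factor, read 2012 and 1876, under the 2659 and 3085 of SK-N-DZ. IGF1R lay at least 2-fold below all other arrays, at 1083 and 1695 against 4163, 5128 and 6109, but 2 of its 3 further bright probe sets overlapped them. None passed the adjusted test.

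The 23 tested genes of ALK signalling had 3 above every other array, 3 below and a median of -0.07, which is near the share of all tested genes, 13.6% above and 13.5% below. DUSP4, a phosphatase that is a target and brake of MAP kinase signalling, read 5035 and 11529 in NB-39-nu against at most 2975. ETV5, an ETS factor downstream of the pathway, read 3341 and 3869, within the range of SK-N-BE at 3263 and 3947. The adaptor gene SHC3 read 1739 and 1998, under the 2985 and 2654 of SK-N-BE. PTN, which encodes the growth factor pleiotrophin, read 271 and 442 against 1458, 3008 and 34374.

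Neural crest factor genes outside the adrenergic list lay mostly high where both sides reached 200. Of 16 tested SOX and neural crest genes, 7 reached 200 only in the other lines, which fixes their direction. The other 9 reached 200 on an array of each side. Of these, 6 were above every other array and 0 below, where 14.4% and 11.1% of all such genes were. At least 2-fold above were 4 of the 9, as were 117 of all 9693 such genes. ZIC1, 1 of the 7, was the only call. SOX2, a factor of neural progenitors, read 2737 and 3964 in NB-39-nu against 2.13, 61.1 and 469. SOX9 read 1919 and 3754 against at most 483, and DLX5 2227 and 1570 against at most 274. DLX1, of the same family as DLX5, read 5.49 and 3.67 against 22.5 to 535. In the Wnt list the ligand gene WNT5A read 1661 and 2238 against 2.93, 33.3 and 86.5, and the antagonist gene DKK1 read 22.9 and 25.2 against 220, 3876 and 20237. Of the 19 tested Wnt genes, WNT5A alone reached 200 only in NB-39-nu, and 2, with DKK1, only in the other lines, which fixes their direction. The other 16 reached 200 on an array of each side and had a median of 0.72, where all such genes had 0.07. At least 2-fold above was 1 of the 16 and below 1, as were 117 and 70 of all 9693 such genes.

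Most genes of hypoxia and glycolysis had a positive difference, 24 of 27 tested, with a median of 0.78. All 27 reached 200 on an NB-39-nu array; 10 were above every other array and 0 below, where 13.6% and 13.5% of all tested genes were, and 3 were at least 2-fold above. CA12, a carbonic anhydrase gene, read 3182 and 2191 in NB-39-nu against 136, 242 and 346. ENO2, the neuronal enolase gene, read 7245 and 11035 against at most 2615. On the knockdown array of NB-39-nu 6 of the 27 were at least 2-fold higher than on its control array. Of all tested genes that reached 200 on an array of the line, 4.74% were. The glucose transporter gene SLC2A3 went from 858 to 3305. Of 18 tested interferon response genes, 3 reached 200 only in NB-39-nu and 5 only in the other lines, which fixes their direction. The other 10 reached 200 on an array of each side. Of these, 3 were above every other array and 0 below, where 14.4% and 11.1% of all such genes were. At least 2-fold above was 1 of the 10, as were 117 of all 9693 such genes. Among the 3 that reached 200 only in NB-39-nu was the antiviral membrane protein gene IFITM3. It read 6740 and 4346 against 15, 93.4 and just under 200. IFITM1, IFITM2 and IFITM3 are close copies, so their probe sets may share transcripts. Of 23 tested p53 pathway genes, 3 were at least 2-fold below, where 2.26% of all tested genes were. All 3 were under 200 on both NB-39-nu arrays and so were tested only through the other lines, with TP53INP1 at 37.3 and 13.1 against 349, 706 and 4725. Of the 20 that reached 200 on an array of each side, 2 were above every other array and 0 below, where 14.4% and 11.1% of all such genes were. Of 38 tested cell cycle genes none was 2-fold beyond the other arrays in either direction, and their median was 0.05. None of the genes in these 4 lists passed the adjusted test.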

How the data were processed

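RNA from 8 cultures was hybridised to Affymetrix HG-U133 Plus arrays. The values deposited by the authors are intensity values, 1 signal per probe set and array; GCOS and MAS5 are named in the submitters' processing notes, with versions not given in the sources used here. After trimming 2% at each end the mean signal was 500 on each array, and medians ran from 69.9 to 79.8. Of 54675 probe sets, 41097 were annotated to 1 gene, 1801 to several and 11777 to none; 41043 of the first matched RefSeq symbols. Each gene was read through its probe set with the highest mean log2 value. The number of arrays limits the precision.

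A linear model in limma 3.58.1 (R 4.3.3) was fitted to log2(signal + 8) with NB-39-nu against the other lines, the knockdown as a covariate, the line as a random block (estimated correlation 0.863) and a mean-variance trend, with Benjamini-Hochberg adjustment over all 11207 tested genes. A filter on the mean over arrays was not used, since it drops genes bright in 1 line only. The script was tested on simulated data. Lists are described by counts and medians, with no set test. Named genes were those past the threshold, LUM, ALK, MYCN and MYC, members at the ends of the lists by difference, the proteoglycans and genes of the outermost windows; others were named after their values were seen. The genes, lists and tests were chosen with earlier results of these data known. Alternatives changed the pseudocount, filter, normalization, probe set rule, block, covariate, trend and arrays.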

Additional observations from a re-analysis of the deposited data

How the results depend on the processing

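The number of genes past the threshold, 20, which is also the number of those with a 2-fold gap, became 12 with no pseudocount, 61 with no filter on low signals, 31 with the knockdown left out of the model and 13 without the trend. It was 2 with the arrays of a line averaged, and 2 with the control or the knockdown arrays alone, where fewer samples entered the fit. With no line block, which treats the 2 arrays of a line as independent, 293 genes passed and 239 of them had a 2-fold gap. Leaving out a line or a NB-39-nu array gave 8 to 71. The 457 genes at least 2-fold beyond all other arrays became 903 on the control and 889 on the knockdown arrays alone, and 689 to 933 with a line or array left out, since fewer arrays must then be cleared. Where not stated, the cause was not tested.

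Of 110 genes named, 8 changed sign somewhere, none of them past the threshold. With the knockdown arrays alone, or without the control array of NB-39-nu, BGN became 0.45, COL1A1 0.0058, HAND2 0.18, PODNL1 0.42 and STMN2 0.77, and with the control arrays alone DCN became -0.11. BGN was 0.32 with no pseudocount, and HAND2 0.049 with quantile and 0.026 with cyclic loess normalization. With a line or array left out the differences ran over these ranges, with BGN -1.08 to 1.68, CLIP4 -0.92 to 0.17, COL1A1 -0.55 to 0.0058, DCN -0.27 to 1.87, DDX1 -1.22 to 0.40, HAND2 -0.23 to 0.18, PODNL1 -0.94 to 0.42 and STMN2 -2.40 to 0.77. Without presence calls, signals under 200 limit what can be said of the dim side.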

Other observations

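The X chromosome held 24 of the 204 genes at least 2-fold above all other arrays, 6.14% of its 391 tested genes, where 1.82% of all tested genes were, and 8 of those below. MAP7D2, a microtubule-associated protein gene of this chromosome, read 3291 and 4308 in NB-39-nu against at most 65.4 elsewhere, and GAGE1, a cancer-testis antigen gene, 842 and 641 against at most 28.5. On chromosome 3 a window of 11 neighbouring genes with a median difference of 1.63 held RPL39L, which fell, beside P3H2, a collagen prolyl hydroxylase gene at 1067 and 1684 against at most 6.39, MB21D2 at 1720 and 1762 against at most 206, and PLAAT1 at 1590 and 3057 against at most 130. On chromosome 18 the 166 tested genes had a median difference of -0.46.

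Among genes of cell identity outside the lists above, the serotonergic factor gene FEV read 3.83 and 4.5 against 261 to 559. CASP8, the initiator caspase of death receptors, read 499 and 490 against at most 193. These genes were picked after their values were seen, and none passed the adjusted test.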
